A study of Danio rerio with 6 samples.

Results

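The genes slc7a3a (ENSDARG00000020645) and slc7a3b (ENSDARG00000061566) of the zebrafish are paralogs of each other and orthologs of mammalian SLC7A3, which encodes a cationic amino acid transporter. Both were taken by their Ensembl identifiers, 2 genes of the 31540 in the count table. They were measured by RNA-seq in 6 libraries of ovarian follicles from wild type (WT) fish of the AB strain, 3 of previtellogenic (PV) follicles, the stage that opens secondary growth, and 3 of primary growth (PG) follicles. Each library was made from follicles pooled from 3 fish. Each of the 3 pools of fish gave follicles of both stages, so each PV library shares its fish with a PG library, but the sources used here do not say whether the replicate numbers mark the shared pool. PV follicles were retained between sieves of 180 and 250 μm, and PG follicles passed a sieve of 100 μm. The comparison asks which genes change in expression when a follicle is activated. No treatment or mutation was applied to either group, and the age of the fish is not given in the sources used here. The study had named this pair from these same libraries, so the direction of its change below is a measurement of these libraries and not independent evidence.

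Cationic amino acid transporters (CATs) are a subfamily of the SLC7 solute carriers. They sit in the membrane without a partner subunit and carry arginine, lysine and ornithine down the electrochemical gradient, with no need for sodium. Arginine and lysine are building blocks of protein. Arginine is also the substrate of arginase, nitric oxide synthase and creatine synthesis, and arginase turns it into ornithine, from which polyamines are made. The other branch of SLC7 holds light chains that work only when bound to a heavy chain of the SLC3 family.

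Total counts ran from 15412764 to 24603033 in PV libraries and from 14492086 to 36603108 in PG libraries. A level of 3 counts, chosen as a reference and not a limit of the data, was between 8.2e-06% and 2.07e-05% of a library. The deposited normalized counts are raw counts divided by a size factor of each library. The libraries hold whole follicles, and 4 lists of cell type markers moved unequally with stage. Over all tested genes, 13.2% were called higher and 5.97% lower by the rule given below. Of 11 tested oocyte markers 0 were called higher and 5 lower (zar1, zar1l, buc, piwil1 and zp3b), and the normalized counts of the list summed to 95140 to 100400 in PV libraries and 210400 to 223500 in PG libraries. Most of these counts came from zp3b, buc, zar1 and zar1l. The 6 markers not called had log2 fold changes of 0.29 (ddx4), 0.04 (dazl), -0.05 (gdf9), -0.16 (bmp15), -0.69 (figla) and -0.96 (tdrd5). All 10 tested follicle cell markers were called higher, with the highest counts for cyp19a1a, gsdf, hsd3b1 and inha and sums of 2004 to 2412 in PV libraries and 113.7 to 187.4 in PG libraries. Of 13 matched, lhcgr, star and a gene annotated NR5A1 (ENSDARG00000023362) failed the filter on low counts. Some, such as amh, passed it only through their PV counts, so the share called higher is partly set by the filter. With at least 10 counts in every library 3 were called higher and the others were not tested. Of 5 tested stromal markers, 4 were called higher (pdgfra, col1a1b, col1a2 and dcn), with sums of 1052 to 1120 and 326.7 to 555.4. Of 9 tested vessel and blood markers 2 were called higher (cdh5 and tie1) and 3 lower (flt4, hbaa1 and hbba1), with sums of 768.5 to 984.1 and 1417 to 1466. That list mixes genes of vessels, red cells and leukocytes that moved in both directions, so its sum does not stand for a single cell type. With scaling by library total, 1 oocyte marker (zar1) and 0 vessel and blood markers were called lower. Among the follicle cell markers, the call for FOXL2 was lost without any 1 PV library or PG replicate 1 (adjusted p 0.0631 to 0.126), in DESeq2 (0.0691), without the filter, in the test against a 2-fold change and with a replicate block (0.0665 in edgeR), which left 9 of the 10. The call for tie1 was lost with the block (0.0699), in the test against a 2-fold change and without PV replicate 2 or 3 or PG replicate 2 or 3 (0.0542 to 0.119), and that for hbba1 without PV replicate 1 (log2 fold change -0.85). The calls for cdh5, hbaa1, hbba1, dcn, buc and zar1l were also lost in the test against a 2-fold change. No matched gene of these lists was at 0 in all 6 libraries, and amh, made by follicle cells, was at 0 in 2 PG libraries. The part of any of these cells in the results below was not tested, and in bulk follicles fewer cells of a type and less RNA per cell cannot be told apart.

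Both members of the pair were higher in PV follicles. The normalized count of slc7a3a was 790.5, 874.5 and 708.6 in PV replicates 1, 2 and 3, against 193.6, 203.4 and 196.7 in PG replicates 1, 2 and 3. The lowest PV library was thus 3.48-fold above the highest PG library, and the PG libraries lay close together, with a coefficient of variation of 2.54% against 10.5% among PV libraries. The means were 791.2 ± 82.9 in PV follicles and 197.9 ± 5.03 in PG follicles (SD, n = 3 each). In the edgeR quasi-likelihood fit over all genes, the log2 fold change was 1.99 (SE 0.09, adjusted p = 6.45e-08), a 3.98-fold rise. These values rest on 694 to 1007 raw counts per PV library and 109 to 275 per PG library.

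Fewer reads were counted for slc7a3b, and since transcript lengths were not used the levels of the paralogs are not compared. Its normalized count was 80.1, 68.0 and 49.6 in PV replicates 1, 2 and 3, against 19.0, 20.4 and 16.2 in PG replicates 1, 2 and 3. Here too the groups did not overlap, but the lowest PV library was only 2.43-fold above the highest PG library and the PV libraries were spread more widely. The means were 65.9 ± 15.4 in PV follicles and 18.6 ± 2.13 in PG follicles (SD, n = 3 each). The edgeR log2 fold change was 1.80 (SE 0.30, adjusted p = 4.53e-04), a 3.48-fold rise. The raw counts were 102, 54 and 57 in PV libraries and 27, 23 and 9 in PG libraries. Taking each count as an independent read, the counting error is 9.90% to 13.6% per PV library and 19.3% to 33.3% per PG library. The counts were derived from the coverage of paired reads, so the counting error may be larger.

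Of the 15899 genes tested, 13.2% were called higher in PV follicles by the same rule, which asks for an adjusted p no higher than 0.05 and a log2 change of 1 or more. A further 5.97% were called lower, so 19.2% were called in either direction. The PV libraries of 36.5% of tested genes all lay above all PG libraries, so that separation by itself is common in this comparison. By size, slc7a3a was number 807 and slc7a3b number 951 of the 2105 genes called higher, and 5.10% and 6.13% of all tested genes had a larger rise. The median log2 fold change of all tested genes was 0.03. Both calls held in every alternative run, which made 29 checks, since a setting was counted separately for each gene. Only scaling by the oocyte markers moved the fold by over 1.5 times, to a log2 fold change of 2.72 for slc7a3a and 2.52 for slc7a3b.

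**Figure D1:**
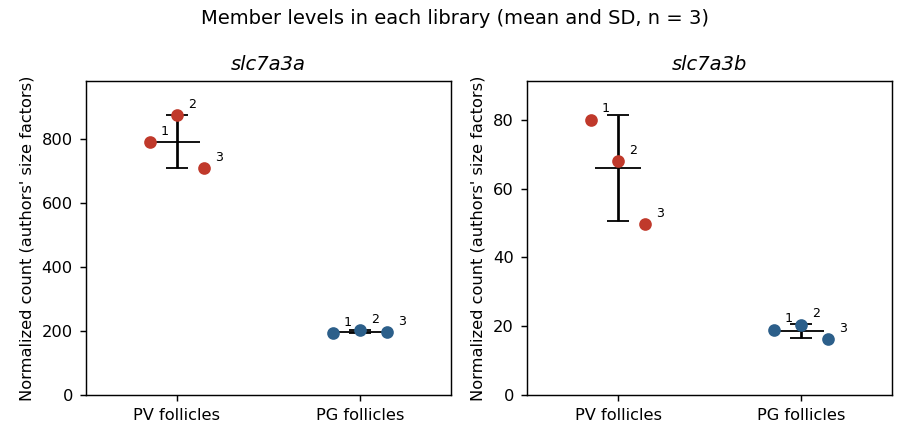
Normalized count of slc7a3a (left) and slc7a3b (right) in each library, with PV follicles left of PG follicles, points numbered by replicate, and lines at the mean with SD (n = 3). All PV points lie above all PG points for both genes, between 708.6 and 874.5 against 193.6 to 203.4 for slc7a3a and between 49.6 and 80.1 against 16.2 to 20.4 for slc7a3b.

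Taken library by library, the PV levels of the paralogs did not rank in the same order. Relative to the mean of the PG libraries, slc7a3a was 3.99-fold higher in PV replicate 1, 4.42-fold in PV replicate 2 and 3.58-fold in PV replicate 3. On the same scale slc7a3b was 4.31-fold, 3.67-fold and 2.67-fold higher. PV replicate 3 was the lowest PV library for both genes, while the highest was PV replicate 2 for slc7a3a and PV replicate 1 for slc7a3b. The order for slc7a3b rests on 102, 54 and 57 raw counts, with counting errors of at least 9.90% to 13.6%. The difference in order was not tested. Replicate 3 was also the lowest PG library for slc7a3b, at 9 raw counts, but not for slc7a3a.

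The proportion between the paralogs was compared on counts within a library, a ratio that needs no scaling between libraries. Since transcript lengths were not used, only the change of the ratio between stages is read. There were 9.87, 12.9 and 14.3 counts of slc7a3a for each count of slc7a3b in PV replicates 1, 2 and 3, against 10.2, 9.96 and 12.1 in PG replicates 1, 2 and 3. The groups overlapped, since PV replicate 1 had the lowest ratio of the 6 libraries. The mean log2 ratio was 3.61 in PV follicles and 3.42 in PG follicles, a difference of 0.19 with an SE of 0.18 (two-sided exact permutation test, p = 0.4, n = 3 each, where 0.1 is the smallest p possible). Leaving out each library in turn gave differences between 0.07 and 0.34. A change in the proportion was not detectable at this depth, which does not show that the ratio was kept.

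Expressed as a share, slc7a3b made up 9.20% of the pair's counts in PV replicate 1 (95% exact binomial interval 7.56 to 11.1%), 7.22% in PV replicate 2 (5.47 to 9.32%) and 6.54% in PV replicate 3 (4.99 to 8.39%). In PG replicates 1, 2 and 3 its share was 8.94% (5.98 to 12.7%), 9.13% (5.87 to 13.4%) and 7.63% (3.55 to 14.0%). All 6 intervals overlap, and they cover counting error only. These intervals and those of the summed counts take each count as an independent read. For counts derived from the coverage of paired reads they may be too narrow. With the counts of a stage summed, the share was 7.81% (6.83 to 8.88%) in PV follicles and 8.78% (6.75 to 11.2%) in PG follicles, from 2516 and 213 counts of slc7a3a and slc7a3b in PV follicles and 613 and 59 in PG follicles. Where reads match both paralogs, the counting could have divided them, and how often this happened was not analysed here.

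**Figure D2:**
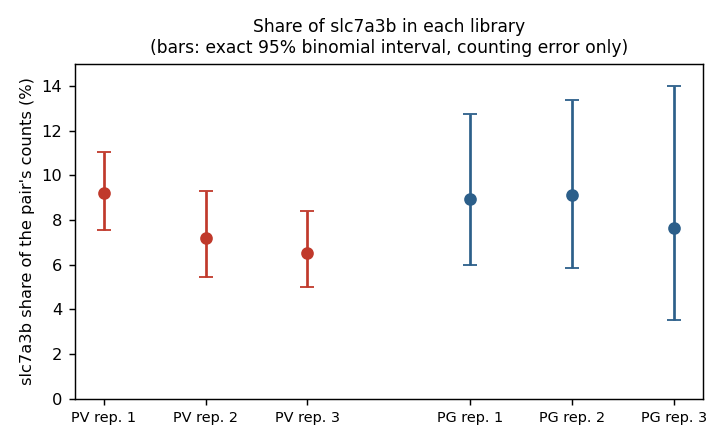
Share of slc7a3b in the summed counts of slc7a3a and slc7a3b (percent, y axis) in each PV and PG library. Bars are the exact 95% binomial interval, which takes each count as an independent read. The shares run from 6.54 to 9.20% in PV libraries and from 7.63 to 9.13% in PG libraries, and all intervals overlap.

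The pair was then set beside the other genes of the CAT subfamily. Of 8 CAT genes matched, 5 passed the filter on low counts. Of these, 3 were called higher (60.0% against 13.2% of all tested genes) and 0 lower (against 5.97%). The 3 are the pair itself and slc7a14a, so only slc7a14a is added by the list. The CAT-like gene slc7a14a had normalized counts of 234.7, 248.2 and 233.9 in PV libraries, against 90.1, 89.7 and 75.8 in PG libraries, and a log2 fold change of 1.46 (SE 0.13, adjusted p = 4.63e-06 in edgeR). The gene annotated SLC7A1 (ENSDARG00000100227), with no paralog letter in the name table, belongs to the most widely expressed CAT of mammals. It had 390.2, 376.7 and 384.3 in PV libraries and 278.7, 262.0 and 256.3 in PG libraries, and its log2 fold change of 0.52 (SE 0.08, adjusted p = 3.11e-04 in edgeR) was under the fold threshold. A similar size was measured for slc7a4, whose human product is CAT-like but has no established transport activity, with a log2 fold change of 0.46 (SE 0.06, adjusted p = 8.97e-05) and means of 1231 ± 61.6 in PV follicles and 895.1 ± 31.9 in PG follicles (SD, n = 3 each). SLC7A1 and slc7a4 thus passed the adjusted p alone, as did 62.5% of all tested genes, and were called higher only with scaling by the oocyte markers, at 1.25 and 1.19.

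The untested CAT genes were nearly absent from the counts. In PV libraries slc7a1a had 0 raw counts and slc7a2 had 6, 0 and 0. In PG libraries slc7a1a had 4, 0 and 0 and slc7a2 had 0, while slc7a14b was at 0 in all 6 libraries.

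Within a library, the counts of slc7a3a were 202.6%, 232.1% and 184.4% of those of SLC7A1 in PV replicates 1, 2 and 3, against 69.4%, 77.6% and 76.8% in PG replicates 1, 2 and 3. The counts of slc7a3b were 20.5%, 18.1% and 12.9% of those of SLC7A1 in PV libraries and 6.82%, 7.80% and 6.34% in PG libraries. In both cases the stages did not overlap. As transcript lengths were not used, these percentages do not rank the levels of the genes, and only their change between stages is read. The log2 ratio to SLC7A1 was higher in PV follicles by 1.46 (SE 0.11) for slc7a3a and by 1.28 (SE 0.22) for slc7a3b.

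The same ratio taken to slc7a4 was higher by 1.53 (SE 0.12) for slc7a3a and by 1.35 (SE 0.23) for slc7a3b. Taken to slc7a14a, it was higher by 0.50 (SE 0.10) for slc7a3a, whose counts were 303.0 to 352.3% of those of slc7a14a in PV libraries and 214.8 to 259.5% in PG libraries. For slc7a3b the difference to slc7a14a was 0.31 (SE 0.20) and the stages overlapped, with 21.2 to 34.1% in PV libraries and 21.1 to 22.8% in PG libraries. These 6 ratios were chosen after the counts had been seen, and in each two-sided exact permutation test p was 0.1, the smallest possible with 3 against 3, except for slc7a3b to slc7a14a at p = 0.3 (0.12 and 0.3 after Benjamini-Hochberg adjustment over the 6). Where the stages did not overlap p could only be 0.1, so those tests add nothing to the values themselves.

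Of 9 tested genes for the heteromeric transporters, 3 were called higher (33.3% against 13.2% of all tested genes) and 0 lower (against 5.97%). The median log2 fold change was -0.03. The cystine and glutamate exchanger slc7a11 had normalized counts of 316.4, 277.2 and 203.5 in PV libraries, against 16.2, 14.2 and 0.0 in PG libraries, and a log2 fold change of 4.42 (SE 0.38, adjusted p = 4.24e-06 in edgeR). The large neutral amino acid carrier slc7a5 had 69.1, 64.3 and 59.1 in PV libraries and 9.15, 1.78 and 0.0 in PG libraries (log2 fold change 3.77, SE 0.57, adjusted p = 2.23e-04). For slc7a10a, of a family that carries small neutral amino acids, the counts were 148.4, 137.3 and 107.8 in PV libraries and 30.3, 25.8 and 25.3 in PG libraries (log2 fold change 2.25, SE 0.21, adjusted p = 9.06e-06). The fitted fold changes of all 3 were larger than those of the pair, a difference that was not tested, and their known substrates are neutral or acidic amino acids and cystine.

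Of the heteromeric carriers known for cationic amino acids, none was called. The log2 fold change was -0.23 (SE 0.07) for slc7a6 and -0.63 (SE 0.47) for slc7a7, which in mammals exchange cationic for neutral amino acids. It was -1.09 (SE 0.57, adjusted p = 0.122 in edgeR) for slc7a9, the light chain of the cystine and cationic amino acid carrier, which was counted at 5.04 to 23.6 in PV libraries and 19.9 to 40.9 in PG libraries. Without PV replicate 1, slc7a9 was called lower, at -1.96 (adjusted p = 0.0248 in edgeR). For SLC7A8, a neutral amino acid carrier, it was -0.03 (SE 0.35). The heavy chains slc3a2a and SLC3A2 (ENSDARG00000037012) were at -0.38 (SE 0.22) and 0.45 (SE 0.13), and SLC3A2 was called higher only with scaling by the oocyte markers, at 1.18. A further gene named SLC3A2 (ENSDARG00000055791), outside the list and chosen after its values were seen, had 184.5, 189.0 and 146.9 in PV libraries and 11.3, 7.995 and 0.0 in PG libraries, with a log2 fold change of 4.44 (SE 0.38, adjusted p = 4.09e-06). Of the untested genes, slc7a10b had raw counts of 0 in each PV library and 10, 15 and 3 in PG libraries, and slc7a8b and slc3a1, the heavy chain of slc7a9, were at 0 in all 6.

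Among other carriers, 4 of 6 matched genes were tested and 1 was called, as higher (25.0% against 13.2% of all tested genes). The mitochondrial ornithine carrier slc25a15a had raw counts of 46, 9 and 20 in PV libraries and 8, 5 and 2 in PG libraries, and a log2 fold change of 2.19 (SE 0.59, adjusted p = 0.00861 in edgeR). That call was lost without PV replicate 1, at 1.59 (adjusted p = 0.0678 in edgeR), and in the test against a 2-fold change. Its paralog SLC25A15 was at 0.79 (SE 0.35) and was not called. It was called higher with scaling by library total, at 1.21, and by the oocyte markers, at 1.52. The lysosomal carriers slc66a1, which exports cationic amino acids, and slc38a9, through which lysosomal arginine is sensed, were at 0.11 (SE 0.08) and 0.07 (SE 0.06), and the stages overlapped for both. The plasma membrane carrier slc6a14, which also takes cationic amino acids, was at 0 raw counts in PV libraries and 21, 9 and 0 in PG libraries and was not tested, like the organic cation exporter slc47a1.

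**Figure D3:**
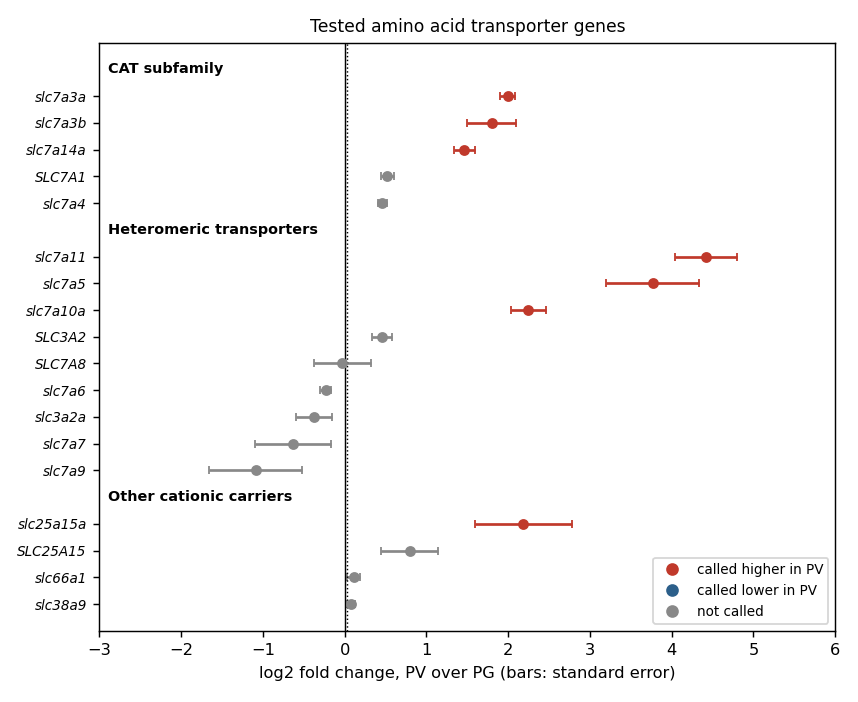
The log2 fold change, PV over PG, of each tested CAT, heteromeric and other carrier gene (x axis, bars for the standard error), in red where called higher in PV follicles and grey where not called. The dotted line is the median of all tested genes, 0.03. The pair lies at 1.99 and 1.80, above slc7a14a at 1.46 and below slc7a11 at 4.42 and slc7a5 at 3.77.

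The genes that use the amino acids these carriers transport were counted against the shares of all tested genes, 13.2% called higher and 5.97% called lower. With scaling by library total none of the arginine, polyamine and lysine genes was called lower. Of 10 tested genes of arginine metabolism, 3 were called higher and 2 lower (median log2 fold change -0.38). The arginase gene arg2, whose product splits arginine into ornithine and urea in mitochondria, had normalized counts of 354.8, 351.5 and 340.8 in PV libraries, against 33.8, 46.2 and 14.4 in PG libraries, and a log2 fold change of 3.35 (SE 0.23, adjusted p = 7.90e-07 in edgeR). The ornithine aminotransferase oat averaged 50.7 ± 12.3 in PV follicles and 20.7 ± 7.17 in PG follicles (SD, n = 3 each; log2 fold change 1.36, SE 0.36), a call lost in the test against a 2-fold change. The third, the carbamoyl phosphate synthase cps1, fell outside the rule for named genes and is given because its call was fragile. It had raw counts of 18, 9 and 10 in PV libraries and 0, 5 and 0 in PG libraries, and its adjusted p of 0.0265 in edgeR was lost in DESeq2, without the filter, in the test against a 2-fold change, with a replicate block and without any library other than PG replicate 2 (log2 fold change 2.00 to 2.89, adjusted p 0.0567 to 0.102 without those libraries).

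The enzymes of creatine synthesis were lower. The first, gatm, which takes its amidino group from arginine, averaged 306.1 ± 18.3 in PV follicles and 685.3 ± 55.4 in PG follicles (SD, n = 3 each; log2 fold change -1.15, SE 0.08). The second, gamt, averaged 69.6 ± 18.1 and 186.4 ± 40.0 (log2 fold change -1.38, SE 0.22). Both calls were lost with scaling by library total, at -0.74 for gatm and -0.97 for gamt, with scaling by the oocyte markers, and in the test against a 2-fold change.

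Of 16 tested genes of polyamine metabolism, 2 were called higher (12.5%) and 1 lower (6.25%), shares near those of all tested genes (median -0.16). Ornithine decarboxylase, odc1, which makes the first polyamine from ornithine, was at -0.19. The antizyme gene oaz2a, whose family restrains that enzyme, had counts of 89.5, 55.4 and 108.7 in PV libraries and 22.5, 31.1 and 12.6 in PG libraries (log2 fold change 1.87, SE 0.35). The polyamine oxidase paox averaged 83.6 ± 8.46 in PV follicles and 8.162 ± 3.401 in PG follicles (log2 fold change 3.23, SE 0.33). A spermidine and spermine acetyltransferase gene, sat1a.2, averaged 1067 ± 82.9 in PV follicles and 2527 ± 129.3 in PG follicles (log2 fold change -1.24, SE 0.07), a call lost with scaling by library total or the oocyte markers. Of 6 genes of lysine breakdown, 1 was called higher (median 0.18). This was aass, which carries out the first steps, at 568.0 ± 42.3 in PV follicles and 264.5 ± 21.2 in PG follicles (log2 fold change 1.09, SE 0.09), and its call was lost in the test against a 2-fold change.

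**Figure D4:**
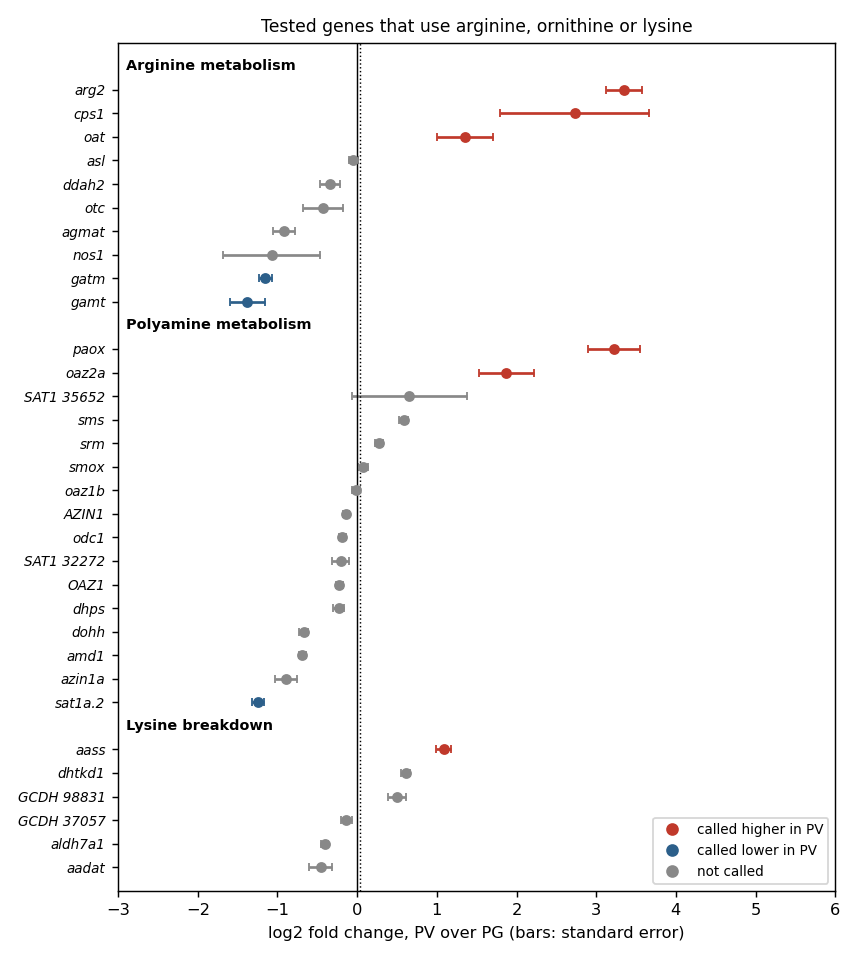
The log2 fold change, PV over PG, of each tested gene of arginine, polyamine and lysine metabolism (x axis, bars for the standard error), in red where called higher in PV follicles, blue where called lower and grey where not called, with the dotted line at the median of all tested genes, 0.03. Numbers after a name are the last digits of the Ensembl identifier of genes that share it. The highest are arg2 at 3.35 and paox at 3.23, and the lowest are gamt at -1.38 and sat1a.2 at -1.24.

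Of 15 tested genes that report amino acid supply to the kinase mTOR, 1 was called higher (6.67% against 13.2% of all tested genes) and 0 lower (against 5.97%). The median was 0.01, and mtor itself was at -0.27. The call was for sesn3, of the sestrin family of brakes on mTOR signalling, with 47, 25 and 29 raw counts in PV libraries and 8, 0 and 0 in PG libraries (log2 fold change 3.61, SE 0.78, adjusted p = 0.00239 in edgeR). Of 11 tested genes of the response to amino acid shortage, 2 were called higher and 2 lower (18.2% each, against 13.2% and 5.97% of all tested genes, median 0.03). The transcription factor genes of this response differed in direction. Of the genes for the central factor, atf4a averaged 3821 ± 309.5 in PV follicles and 11200 ± 330.1 in PG follicles (log2 fold change -1.55, SE 0.06), a call lost with scaling by the oocyte markers. Its paralog atf4b was not called, at 0.06 (SE 0.06), and the stages overlapped. The gene ddit3 averaged 133.2 ± 11.4 and 19.6 ± 10.8 (log2 fold change 2.61, SE 0.30). The pseudokinase gene trib3 was higher, at 1853 ± 75.5 and 804.4 ± 28.0 (1.20, SE 0.06). The mTOR inhibitor gene ddit4 was lower, at 447.4 ± 125.0 and 985.4 ± 283.4 (-1.11, SE 0.23), a call lost with scaling by library total or the oocyte markers, in the test against a 2-fold change and without PV replicate 2 (-0.96) or PG replicate 2 (-0.94).

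Over the 8 lists of transporters, metabolism and sensing, the pair included, 75 of 89 matched genes were tested. Of these 16 were called higher, or 21.3% against 13.2% of all tested genes, and 5 lower, or 6.67% against 5.97%. The median log2 fold change of the 75 was 0.01 beside 0.03 for all tested genes.

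Set against the oocyte markers, the stages lay further apart. The normalized count of slc7a3a was 16.6%, 18.8% and 15.1% of the geometric mean of 11 oocyte markers in PV libraries, against 2.50%, 2.59% and 2.54% in PG libraries. For slc7a3b it was 1.68%, 1.47% and 1.06% in PV libraries and 0.25%, 0.26% and 0.21% in PG libraries. That geometric mean of normalized counts was itself lower in PV libraries, at 4645 to 4760, than in PG libraries, at 7745 to 7850, so these percentages move with the markers as well as with the pair. The study lists the pair as oocyte-specific, with location taken from earlier zebrafish work and a sheep dataset and not from these libraries. From the counts of whole follicles used here, transcripts of the oocyte and of the cells around it cannot be told apart.

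**Figure D5:**
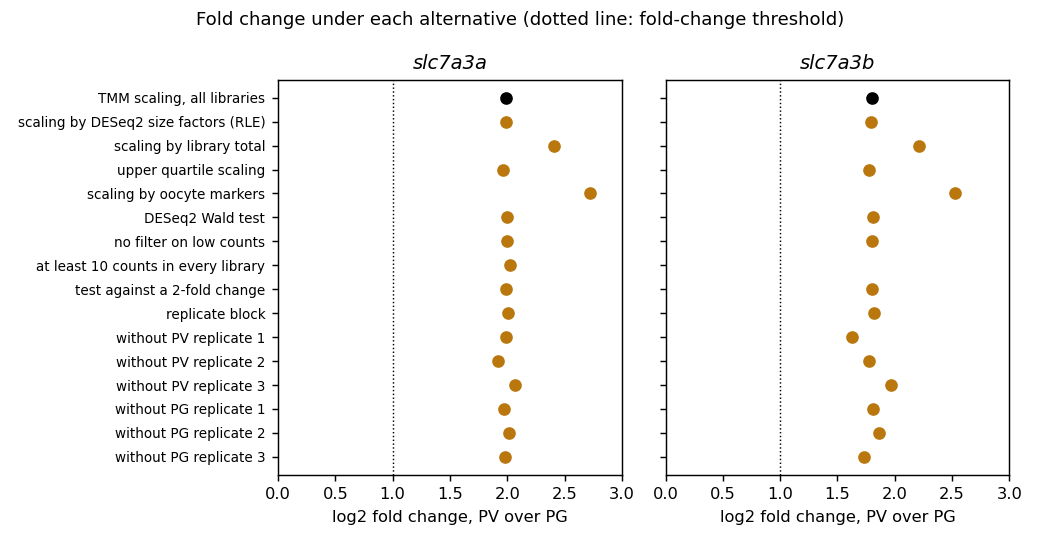
The log2 fold change, PV over PG, of slc7a3a (left) and slc7a3b (right) in the main edgeR fit (black) and in each alternative (brown), with the dotted line at the threshold of 1. All points lie above it, and the highest are from scaling by library total, at 2.41 and 2.21, and by the oocyte markers, at 2.72 and 2.52. The setting of at least 10 counts in every library gives no point for slc7a3b, which had 9 in PG replicate 3.

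Likeness in profile was measured as the root mean square difference of log2 CPM (counts scaled to library size) over the 6 libraries, each gene centred on its own mean, among 11909 named genes whose normalized counts averaged 50 or more. Among the genes closest to slc7a3a were dnajc27, mtx3, trove2 and TSHZ2, with differences of 0.08, 0.09, 0.10 and 0.11 and log2 fold changes between 2.02 and 2.09. Those closest to slc7a3b were vasna, gdpd1, fam155b, swt1 and RNF169, at 0.14, 0.14, 0.15, 0.15 and 0.15, with log2 fold changes between 1.63 and 1.80. The paralogs were not each other's nearest profile. Their difference was 0.22, and of 15898 other tested genes slc7a3b stood 156th from slc7a3a and slc7a3a stood 106th from slc7a3b. These ranks are over all tested genes. With an average under 50, slc7a3b could not appear in the list of slc7a3a. Its raw counts fell to 9 in PG replicate 3. The parts of counting error and of the added prior count in the difference were not tested.

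In the RefSeq gene order of another assembly, GRCz12tu, the genes before slc7a3a are snx12, a sorting nexin, and afap1l1b. Both were called higher, snx12 at 2323 ± 148.6 in PV follicles and 776.2 ± 22.3 in PG follicles (log2 fold change 1.58, SE 0.06) and afap1l1b at 426.6 ± 50.4 and 171.0 ± 12.2 (1.33, SE 0.11). After it lie rab39ba, which was not matched, and rab38c, whose counts were too low to test. None of the 4 neighbours of slc7a3b was called in the main fit, where 13.2% of all tested genes were called higher and 5.97% lower. These neighbours were prss23 at 0.35, ubl3b at 0.08, si:ch211-126c2.4 at -0.14 and foxo4 at 0.71. With scaling by library total foxo4 was called higher, at 1.13. With scaling by the oocyte markers both foxo4, at 1.44, and prss23 were called higher. The calls among neighbours were not tested against the shares of all tested genes. The same annotation places a long non-coding RNA gene, LOC141380017, over slc7a3a, and without the strand reads of the pair of genes cannot be told apart.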

How the data were processed

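Per the labels and the methods of the study, 100-bp paired-end reads were aligned to GRCz10 with TopHat2 and assembled with StringTie, and the authors deposited a raw count per Ensembl gene, which prepDE derives from coverage. Their second deposited table is a normalized signal, each count over the DESeq2 size factor of its library (0.554 to 1.42). The labels and the methods name different library kits, and the use of strand in counting is not given in the sources used here.

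The stage was taken from the label. Raw counts were tested with edgeR 4.0.16 in R 4.3.3: filterByExpr (minimum count 10, minimum total 15), TMM, stage as the only factor, quasi-likelihood test, and Benjamini-Hochberg adjustment over 15899 genes. SE is the absolute log2 fold change divided by the root of F. Named genes are the pair, tested carriers, in other lists up to 4 called members of highest count and any called lower, and the 5 nearest profiles, of which 1 is not reported here. Outside this rule, cps1, odc1, mtor, amh, FOXL2, atf4b, the untested carriers and the chromosomal neighbours were named after their values were seen. So were the oocyte markers not called and the untested follicle cell markers. The members, lists and tests were chosen with earlier results of these data known. Names came from a gene name table, a supplementary table and RefSeq, and 123 of 138 listed symbols were matched. P-values measure the spread between pools of 3 fish. Alternatives were DESeq2 1.42.0, other scalings and filters, a 2-fold test, a replicate block and leaving out each library.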

Additional observations from a re-analysis of the deposited data

How the results depend on the processing

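For the pair, all 29 checks (alternatives counted separately for each gene) kept the direction and the call. Leave-one-out log2 fold changes were 1.92 to 2.06 for slc7a3a and 1.63 to 1.97 for slc7a3b. With the replicate block they were 2.00 and 1.82. Libraries of the stages share fish, but which pairs do is not stated. The numbers were therefore not read as pairs in the main fit, where the shared fish are not modelled. Same-numbered libraries did not deviate together (r = -0.01, -0.01 and 0.02). Between libraries of different number r ran only from -0.05 to 0.07, so this check cannot tell which libraries share fish. With the block the lists had 15 calls higher in place of 16, follicle cell markers 9 in place of 10 and vessel and blood markers 1 in place of 2. With same-numbered libraries taken as pairs, the difference in log2 ratio between the paralogs was 0.19 (exact sign-flip test, p = 0.5). So few pairs cannot give a small p in that test. The ratio difference was 0.25 with a pseudocount of 1, 0.19 from normalized or summed counts and 0.07 to 0.34 with leave-one-out. Division by length was not run, since no transcript length was used and a constant length cancels. Library-total scaling shifted the median over all tested genes (log2) by 0.42 and oocyte-marker scaling by 0.73. Genes called higher numbered 3664 and 5633 with those scalings, 1223 with at least 10 counts in every library and 1025 in the 2-fold test, against 2105, and genes called lower 415, 229, 614 and 410, against 949. Listed genes called higher numbered 27 with oocyte-marker scaling and 6 with at least 10 counts in every library, and 14 to 17 with leave-one-out. The setting of at least 10 counts in every library tested 13128 genes in place of 15899. The listed calls missing with it belong to genes it dropped before the test. The lowest raw count behind a value of the pair is 9, for slc7a3b in PG replicate 3.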

Other observations

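Among the polyamine genes counted above, a gene annotated SAT1 (ENSDARG00000035652), named for a spermidine and spermine acetyltransferase and chosen after its values were seen, had raw counts of 200, 106 and 142 in PV replicates 1, 2 and 3, against 24, 246 and 8 in PG replicates 1, 2 and 3. PG replicate 2 stood apart from the other PG libraries, and the gene was called higher in PV follicles only when that library was left out (log2 fold change 3.09, adjusted p = 1.95e-05 in edgeR). Without that library 3 polyamine genes were called higher in place of 2.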
